A study of Mus musculus with 48 samples.

Results

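The genes described here encode 10 proteins that coat lipid droplets or help form them. They include the perilipins Plin2, Plin3, Plin4 and Plin5 and the CIDE proteins Cidea, Cideb and Cidec. The others are the droplet-forming protein Fitm2 and the paired enzymes Hsd17b13 and Hsd17b11. The genes were chosen by name, with earlier results of these data known, and they are 10 of the 14251 genes in the count table. All 10 had a row, and 9 passed the filter on low counts. Cidea did not.

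A lipid droplet is a core of triglyceride and sterol ester under a single layer of phospholipid, and the proteins on that layer decide which enzymes reach the core. PLIN2 covers most droplets of the hepatocyte, PLIN5 holds the lipase ATGL and its activator ABHD5 at the surface and ties droplets to mitochondria, and the CIDE proteins pass lipid from small droplets to large ones. FITM2 acts in the endoplasmic reticulum membrane, where droplets bud, and HSD17B13 is a droplet enzyme of the hepatocyte known from human genetics of fatty liver disease.

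Livers of 48 male C57BL6J mice were profiled with QuantSeq, which sequences the 3′ end of each polyadenylated RNA, so a count stands for a transcript whatever its length. For 2 weeks the drinking water held 100 ug/ml corticosterone, the glucocorticoid of rodents, or 1% ethanol as vehicle, and the chow was plain (control diet) or milled with 571 mg/kg atglistatin, an inhibitor of ATGL, the triglyceride lipase encoded by Pnpla2. The groups were vehicle with control diet (n = 10), vehicle with atglistatin (n = 10), corticosterone with control diet (n = 14) and corticosterone with atglistatin (n = 14). Both agents were swallowed and neither was directed at the liver, and no group carried an engineered allele. Each library has its own labelled glucose and insulin value, so the spread between libraries is a spread between mice. The design asks how these genes respond to a glucocorticoid and to the lipase inhibitor, alone and together.

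Total counts per library ran from 7449109 to 21175603. Hepatocyte markers (7 of 8 listed had values, among them Alb and Ttr) summed to 82500 to 154000 CPM (counts scaled to a common, TMM-adjusted library total). Corticosterone with atglistatin replicate 41 stood apart: its mean absolute log2 deviation from its group was 0.445, against 0.351 in the next library, and it had the lowest insulin of its group (2.19, group median 13.8) and the highest sums of macrophage markers (311 CPM, group median 68.8) and stellate cell markers (442 CPM, group median 311). For the members, results that rest on it are given with and without it. Results for the other gene lists include it. In whole liver, fewer cells of a type and less RNA per cell cannot be told apart.

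Plin3, Plin4 and Plin5 lie on chromosome 17 of GRCm38. Plin4 (56100591-56109803) and Plin5 (56111601-56117596) are separated by 1797 bases, and Plin3 (56277476-56292873) begins 159879 bases beyond Plin5. All 3 are on the minus strand. Plin2 is on chromosome 4 (86648386-86670060, minus strand). Plin3, Plin4 and Plin5 were called higher with corticosterone on control diet and lower with atglistatin under corticosterone, and Plin2 was not. For that reason the promoters of all these genes are printed, from 250 bases before to 20 bases after the RefSeq start on GRCm38.p6. For Plin5, which has a pair of starts in the table, the upstream one is shown. Capitals mark AGGTCA on either strand, the half-site letters that nuclear receptors such as PPARα read, the E-box CACGTG, and CTATAAGG, a TATA-like element.
Plin5, chr17:56117529-56117798, minus strand: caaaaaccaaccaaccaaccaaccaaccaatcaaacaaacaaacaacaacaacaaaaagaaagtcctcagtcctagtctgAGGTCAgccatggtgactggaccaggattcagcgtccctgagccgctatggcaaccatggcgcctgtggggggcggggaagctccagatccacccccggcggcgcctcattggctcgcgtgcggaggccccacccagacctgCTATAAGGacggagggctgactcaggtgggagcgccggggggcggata
Plin4, chr17:56109763-56110032, minus strand: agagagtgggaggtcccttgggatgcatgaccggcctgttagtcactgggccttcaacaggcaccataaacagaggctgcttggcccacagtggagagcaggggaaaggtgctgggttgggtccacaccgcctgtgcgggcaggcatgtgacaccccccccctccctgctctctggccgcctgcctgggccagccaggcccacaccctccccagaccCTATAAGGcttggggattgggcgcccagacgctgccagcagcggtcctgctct
Plin3, chr17:56290492-56290761, minus strand: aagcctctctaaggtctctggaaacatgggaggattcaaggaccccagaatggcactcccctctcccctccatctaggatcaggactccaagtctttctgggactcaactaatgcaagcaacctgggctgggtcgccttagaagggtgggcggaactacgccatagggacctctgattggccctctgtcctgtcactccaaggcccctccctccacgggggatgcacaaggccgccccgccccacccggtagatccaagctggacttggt
Plin2, chr4:86670040-86670309, minus strand: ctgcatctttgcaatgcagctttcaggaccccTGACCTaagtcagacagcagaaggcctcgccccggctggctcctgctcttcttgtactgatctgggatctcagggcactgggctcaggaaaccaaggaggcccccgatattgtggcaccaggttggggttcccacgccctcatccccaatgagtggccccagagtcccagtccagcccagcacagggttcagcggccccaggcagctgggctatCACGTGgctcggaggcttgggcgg

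The Plin5 and Plin4 promoters both hold CTATAAGG, 28 and 33 bases before the start. It is the longest word these promoters share in the 50 bases before the start, was noticed after the sequences were read, and is present on either strand in 0.417% of the 32851 promoters of the table. The printed Plin3 and Plin2 promoters do not hold these letters. Coding transcripts of these genes in GENCODE start over spans of 2362 and 4335 bases, and starts outside the promoter table were not searched. AGGTCA was found 170 bases before the Plin5 start and, on the opposite strand, 218 bases before the Plin2 start, and 16.3% of all promoters hold it. CACGTG lies across the Plin2 start and occurs in 7.15% of promoters. Longer elements of PPARα, the glucocorticoid receptor, the sterol factor SREBP and the carbohydrate factor ChREBP, which 0.381%, 0.0639%, 1.24% and 0.0457% of promoters hold on either strand, had no match in the 9 members with a promoter in the table. A match is a description of letters and not of binding, and no match says nothing of a factor bound elsewhere.

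Plin5, the perilipin that docks ATGL and joins droplets to mitochondria, was the only member whose vehicle and corticosterone libraries did not overlap, on either diet. In vehicle mice on control diet it ran from 24.7 to 94.8 CPM with a median of 45.6. With corticosterone on control diet it ran from 126 to 251 CPM with a median of 196. Every corticosterone library on this diet was above every vehicle library on it, a separation seen upward in 2.68% of the 12688 genes tested. The means were 48.3 ± 20.1 (SD, n = 10) and 191.3 ± 41.2 CPM (SD, n = 14), a log2 fold change of 1.98 (SE 0.153, adjusted p = 4.41e-15, edgeR quasi-likelihood test).

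On the atglistatin diet Plin5 also rose with corticosterone, from 48.75 ± 6.81 (SD, n = 10) to 128.5 ± 25.7 CPM (SD, n = 14). The vehicle libraries ran from 41.2 to 60.1 CPM (median 48.3) and the corticosterone libraries from 85.1 to 179 CPM (median 130), again without overlap, which 1.69% of genes tested showed upward. The log2 fold change was 1.40 (SE 0.149, adjusted p = 1.43e-10). Between the diets, Plin5 was level under vehicle (log2 fold change 0.01, 95% interval −0.30 to 0.32) and lower with atglistatin under corticosterone by a log2 fold change of −0.57 (SE 0.13, adjusted p = 0.00174), with 14 of 14 atglistatin libraries below the mean of the control-diet group, although the groups overlapped.

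The corticosterone response of Plin5 was thus 1.98 on one diet and 1.40 on the other, and the difference between them, −0.59 (SE 0.202), did not pass the test over all genes (adjusted p = 0.15; 1.43% of genes did). Whether the difference passed depended on 1 library of the reference group and on the method. Without vehicle control-diet replicate 12, which held the group's highest Plin5 (94.8 CPM, the next being 62.6), the difference was −0.75 with an adjusted p of 0.0172, and limma voom with sample weights gave −0.70 (adjusted p = 0.0199). The other settings that kept that library gave adjusted p of 0.104 to 0.751 where a set of libraries or the method was changed.

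Plin4, a perilipin with a long repeat helix that coats young droplets, was scarce and rose with corticosterone. On control diet it ran from 1.75 to 6.57 CPM (median 3.24) under vehicle and from 3.52 to 14.7 CPM (median 9.01) under corticosterone. The groups overlapped, with 13 of 14 corticosterone libraries above the vehicle mean, and the log2 fold change was 1.28 (SE 0.241, adjusted p = 2.08e-05). On atglistatin it went from 3.175 ± 1.67 (SD, n = 10) to 5.531 ± 1.91 CPM (SD, n = 14), a log2 fold change of 0.82 (SE 0.241, adjusted p = 0.0062). Under corticosterone, atglistatin libraries (2.92 to 9.67 CPM, median 5) were lower than control-diet libraries by −0.71 (SE 0.206, adjusted p = 0.0163). The difference between the 2 corticosterone responses, −0.46 (SE 0.337), did not pass the edgeR test (adjusted p = 0.658).

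Plin3, formerly TIP47, which moves from the cytosol onto new droplets, followed the same order at a higher level. Vehicle libraries on control diet were tightly grouped from 49.5 to 61.9 CPM (median 55.8), while corticosterone libraries spread from 56.9 to 131 CPM (median 91.9). The log2 fold change was 0.68 (SE 0.122, adjusted p = 1.04e-05), and 14 of 14 corticosterone libraries exceeded the vehicle mean. On atglistatin the rise was 0.34 (SE 0.121, adjusted p = 0.0254), from 47.8 ± 4.22 (SD, n = 10) to 60.34 ± 16.2 CPM (SD, n = 14). That call is fragile, since it was lost without corticosterone atglistatin replicates 13, 26 or 41 or vehicle atglistatin replicate 12, left out one at a time (adjusted p up to 0.0784, and 0.0682 without replicate 41, where the change was 0.26). Under corticosterone, Plin3 was lower with atglistatin by −0.55 (SE 0.11, adjusted p = 0.000382), and 13 of 14 atglistatin libraries lay below the control-diet mean. Under vehicle the change with atglistatin was −0.21 (adjusted p = 0.448, edgeR), with 10 of 10 libraries below the control-diet mean. The difference between the 2 corticosterone responses, −0.34 (SE 0.17), did not pass the edgeR test (adjusted p = 0.432).

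Plin2, the main hepatocyte perilipin, moved the other way on control diet. It ran from 257 to 422 CPM (median 303) under vehicle and from 156 to 302 CPM (median 227) under corticosterone, a log2 fold change of −0.48 (SE 0.127, adjusted p = 0.00156) with 14 of 14 corticosterone libraries below the vehicle mean. On atglistatin the means were 280 ± 31.6 (SD, n = 10) and 271.1 ± 91.2 CPM (SD, n = 14), and the change of −0.05 (95% interval −0.30 to 0.21) did not pass the test (adjusted p = 0.808). Replicate 41 held the highest Plin2 of all (533 CPM); without it the group mean was 250.9 ± 53.3 CPM (SD, n = 13). The difference between the 2 responses, 0.44 (SE 0.181), did not pass the test (adjusted p = 0.283).

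**Figure D1:**
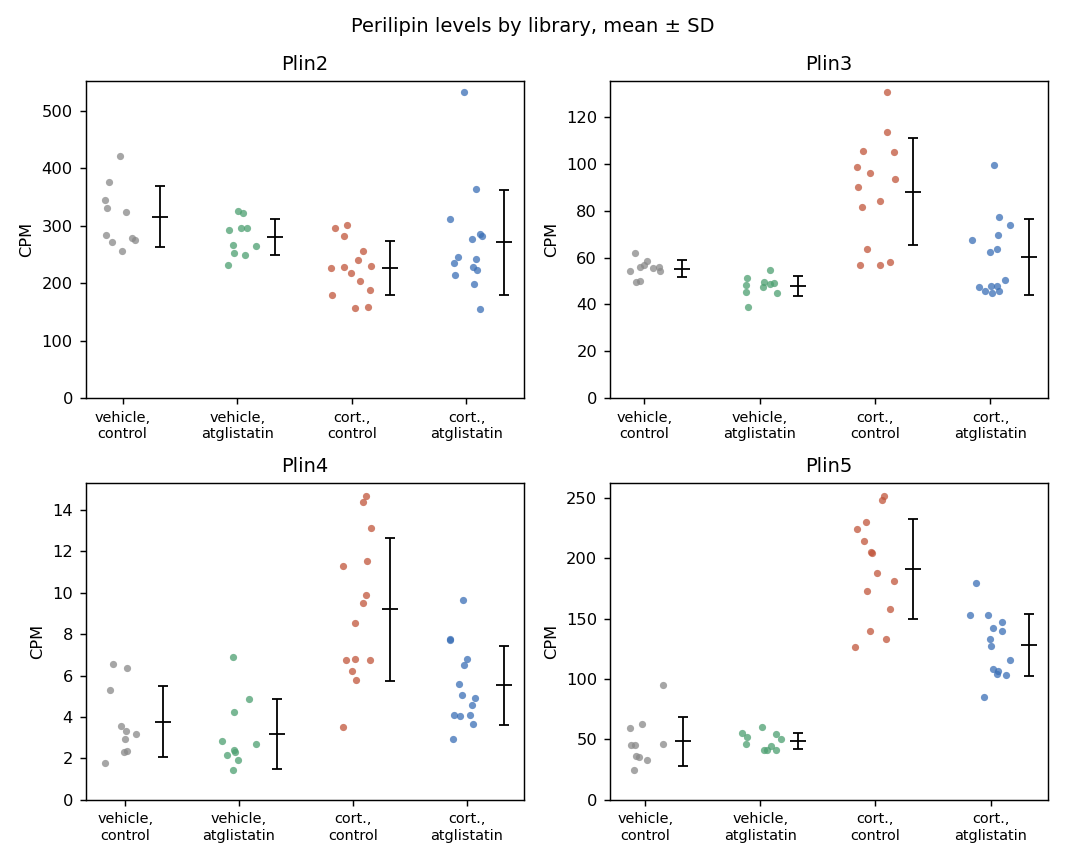
CPM (linear axes) of the perilipin genes in each of the 48 libraries (points) by group, with the mean and SD beside them. Within each diet, Plin5 separates without overlap between vehicle and corticosterone (24.7 to 94.8 and 126 to 251 CPM on control diet). Corticosterone with atglistatin starts at 85.1 CPM, below the highest vehicle library on control diet. Plin3 and Plin4 are higher with corticosterone with overlap, and Plin2 is lower with corticosterone on control diet.

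The make-up of the perilipin transcripts therefore differed between groups. Plin2 gave 74.5 ± 4.3% (SD, n = 10) of the summed counts of Plin2, Plin3, Plin4 and Plin5 in vehicle mice on control diet and 73.6 ± 3.06% (SD, n = 10) on atglistatin. With corticosterone its share was 44.1 ± 7.41% (SD, n = 14) on control diet and 57.5 ± 6.46% (SD, n = 14) on atglistatin. Plin5 gave 11.3 ± 3.63% and 12.9 ± 1.99% in the vehicle groups, and 36.9 ± 4.02% and 28.1 ± 4.68% in the corticosterone groups in the same diet order. No corticosterone library of either diet overlapped a vehicle library in either share. Plin3 stayed between 12.6% and 17.2% in the group means, and Plin4 did not exceed 2.65% in any library. Shares are descriptions and were given no test.

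**Figure D2:**
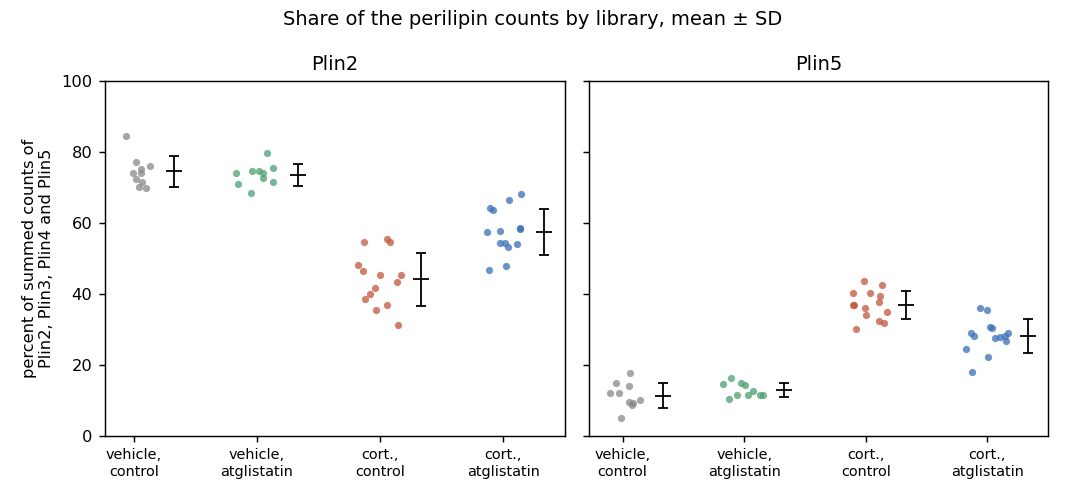
Percent of the summed perilipin counts (Plin2, Plin3, Plin4 and Plin5; linear axis from 0 to 100) given by Plin2 (left) and Plin5 (right) in each library (points), with mean and SD by group. The Plin5 share is 4.95 to 17.7% in vehicle libraries on control diet and 30.2 to 43.7% with corticosterone on the same diet.

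Among the CIDE genes, Cideb, the hepatocyte member that enlarges droplets and loads lipid onto nascent VLDL, gave at least 96.8% of the family's counts in every library but replicate 41 (86%). It ran from 335 to 532 CPM (median 447) in vehicle mice on control diet and from 400 to 565 CPM (median 452) with corticosterone, and did not pass the test (log2 fold change 0.07, 95% interval −0.07 to 0.22). On atglistatin it rose from 412.1 ± 38.1 (SD, n = 10) to 488.3 ± 48.6 CPM (SD, n = 14), a log2 fold change of 0.24 (SE 0.0714, adjusted p = 0.00563). Cideb (chromosome 14, 55754050-55758458) overlaps Nop9 on the opposite strand by 1451 bases, and the strand setting of the counting is not given in the sources used here. Nop9 had 10735 counts in all libraries together.

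Cidec (chromosome 6, 113424634-113435760), also called Fsp27, the CIDE protein of large droplets that rises in fatty liver, was at single CPM in nearly every library. It ran from 0.409 to 7.51 CPM (median 2.38) in vehicle mice on control diet, from 0.59 to 4.50 CPM (median 1.32) in vehicle mice on atglistatin, and from 0.631 to 7.09 CPM (median 2.74) with corticosterone on control diet. With corticosterone and atglistatin, 13 libraries lay between 0.322 and 2.57 CPM and replicate 41 held 70.4 CPM. That library sets the sign of each comparison of the group.

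For Cidec under corticosterone, the change with atglistatin was 0.91 (SE 0.585, adjusted p = 0.352) with all libraries and −1.59 (SE 0.351, adjusted p = 0.00125) without replicate 41. DESeq2, which replaced the count of 1150 in that library by 29, gave −1.56 (adjusted p = 0.00013), and limma voom with sample weights gave −1.38 (adjusted p = 0.00829). Of the 14 atglistatin libraries, 13 were below the control-diet mean of 3.252 ± 2.03 CPM (SD, n = 14). For corticosterone on atglistatin, edgeR gave 1.85 (SE 0.696, adjusted p = 0.0323) with replicate 41 and −0.66 (SE 0.394, adjusted p = 0.192) without it. On control diet, which does not involve that group, the change was 0.27 (95% interval −1.11 to 1.64, adjusted p = 0.783).

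Replicate 41 differed in more than Cidec. It held the highest Plin2 (533 CPM), Plin3 (99.7 CPM), Plin4 (9.67 CPM) and Hsd17b13 (889 CPM) of its group, whereas its Cideb (433.4 CPM) lay within the range of the others. Outside the droplet coat it was also the group's highest library for Hilpda, an ATGL inhibitor (38.8 CPM, group median 7.94), Pnpla2 (102 CPM, median 44), Lpl (61.4 CPM, median 8.35), Fabp4 (51.5 CPM, median 21.8), and the lipid-handling macrophage genes Gpnmb (19.3 CPM, median 0.0984) and Trem2 (5.45 CPM, median 0.243). Its sums over whole gene lists went both ways. They were the group's lowest for lipolysis and lipophagy (2220 CPM, median 3380), triglyceride synthesis (693 CPM, median 988) and adipocyte markers (172 CPM, median 987). For PPARγ targets of steatosis (188 CPM, median 75.4) and, as given above, macrophage and stellate cell markers they were the highest. Its Adipoq, the defining adipocyte gene, was at 0. The part of other cells in its Cidec level was not tested.

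Cidea, the CIDE gene of brown fat, was near the limit of detection, with 251 counts in all and 0 in 15 of 48 libraries. The groups held 91, 71, 79 and 10 counts in the order vehicle control, vehicle atglistatin, corticosterone control and corticosterone atglistatin, and 9 of the 14 libraries of the last group were at 0 with a maximum of 0.184 CPM. The filter left it out. Without a filter, edgeR placed it lower with atglistatin under corticosterone (log2 fold change −3.05, SE 0.821, adjusted p = 0.0101) and lower with corticosterone on atglistatin (−3.23, SE 0.849, adjusted p = 0.00235). These fitted values rest on a few counts per library.

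**Figure D3:**
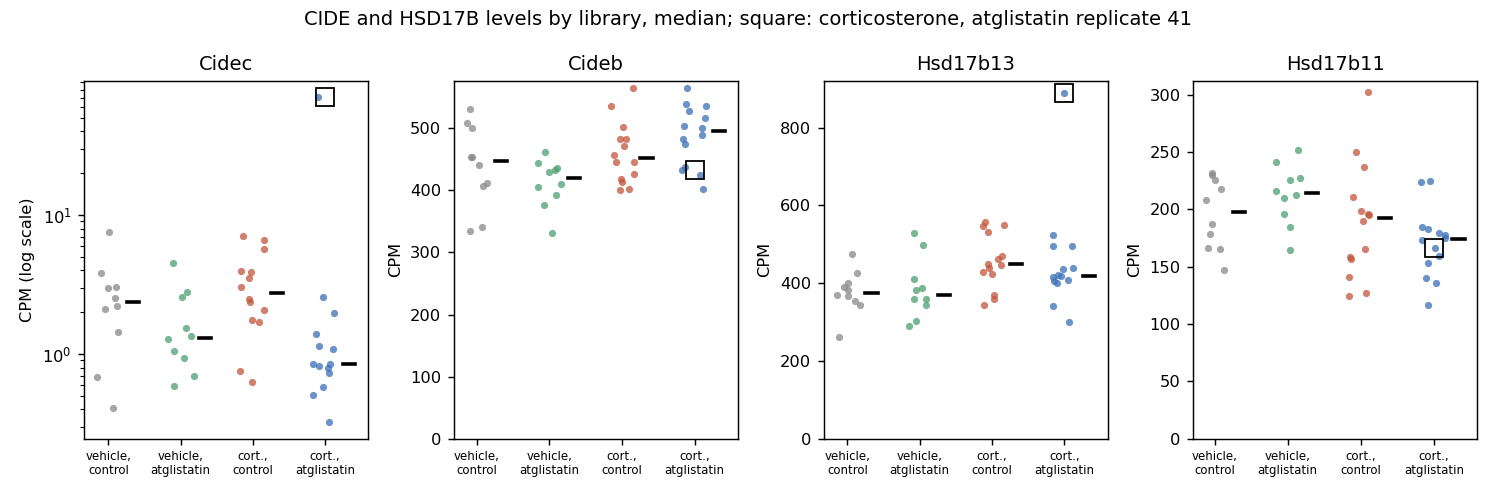
CPM of Cidec (log axis) and of Cideb, Hsd17b13 and Hsd17b11 (linear axes from 0) in each library by group, with the median as a bar. The square marks corticosterone atglistatin replicate 41, where Cidec is 70.4 CPM against at most 2.57 CPM in the other libraries of the group, and Hsd17b13 is 889 CPM.

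Fitm2 (chromosome 2, 163466379-163472629), which partitions triglyceride into budding droplets at the endoplasmic reticulum, varied little between groups. Group means ran from 21.21 ± 3.6 (SD, n = 14) with corticosterone and atglistatin to 25.03 ± 4.59 CPM (SD, n = 10) with vehicle and atglistatin. That difference of −0.24 (SE 0.0981) was the last of the 4652 calls of its comparison, at an adjusted p of 0.05, and it was lost when any of 20 of the 48 libraries was left out. On control diet Fitm2 ran from 18.3 to 32.3 CPM under vehicle and from 17.8 to 29.9 CPM under corticosterone, and the change of −0.08 (95% interval −0.28 to 0.12) did not pass the test.

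Hsd17b13 and Hsd17b11, paralogs that lie 12351 bases apart on chromosome 5 (103955440-103977410 and 103989762-104021919), changed little. Hsd17b13, the liver form, ran from 262 to 475 CPM (median 375) in vehicle mice on control diet and from 344 to 558 CPM (median 448) with corticosterone. The change of 0.27 (SE 0.118) missed the threshold (adjusted p = 0.0536), and passed it under limma voom (adjusted p = 0.0137), in a fit of the compared groups alone (0.0278), and when any of 6 libraries was left out, replicate 41 among them (0.0202). Hsd17b11, the broadly expressed form, was lower with corticosterone on atglistatin, with 212.9 ± 26.1 (SD, n = 10) and 170.9 ± 30 CPM (SD, n = 14), a log2 fold change of −0.32 (SE 0.112, adjusted p = 0.0222). On control diet it changed by −0.05 (95% interval −0.28 to 0.18). Hsd17b13 gave 65.7 ± 4.63% and 64.1 ± 3.62% of the pair's counts in the vehicle groups, and 70.9 ± 4.29% and 72.2 ± 4.21% in the corticosterone groups.

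Counted over the 9 members tested, corticosterone on control diet changed 4, where 44.2% of all genes tested were called. Of these, 3 were higher (Plin3, Plin4, Plin5; 22.5% of all genes) and 1 lower (Plin2; 21.7% of all genes). On atglistatin it changed 7, against 36.7% of all genes, with 5 higher (Plin3, Plin4, Plin5, Cideb, Cidec; 19% of all genes) and 2 lower (Fitm2, Hsd17b11; 17.7% of all genes). The Cidec, Plin3 and Fitm2 calls depend on single libraries as given above. Atglistatin under vehicle changed 0 members by edgeR, against 3.13% of all genes, with 0 members at an unadjusted p under 0.05; a fit of the compared groups alone called Plin3 (−0.21, adjusted p = 0.0498). Atglistatin under corticosterone changed 3, against 11.7% of all genes, all of them lower (Plin3, Plin4, Plin5; 6.47% of all genes). These comparisons share groups, so their counts are not independent.

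**Figure D4:**
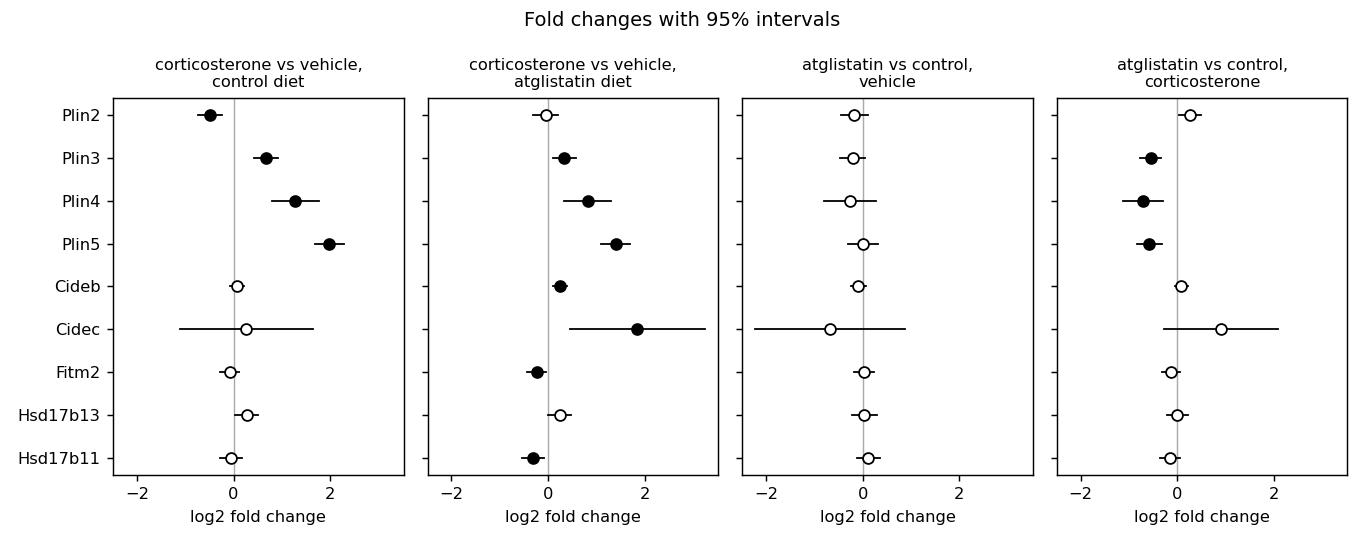
Log2 fold change (points) with its 95% interval (lines) of the 9 members tested, in 4 comparisons named above the panels; filled points passed an adjusted p of 0.05. Plin3, Plin4 and Plin5 are right of 0 with corticosterone on both diets and left of 0 with atglistatin under corticosterone, while the filled Cidec point in the second panel (1.85) became −0.66 without replicate 41.

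Mice given both agents, set against mice given neither, differed by Plin5 alone among the members called (log2 fold change 1.41, SE 0.149, adjusted p = 7.13e-11; 43.6% of genes were called). Plin4 (0.56, adjusted p = 0.0538) and Hsd17b13 (0.28, adjusted p = 0.0525) lay just beyond the threshold. Without replicate 41, Plin2 (−0.34, adjusted p = 0.00942), Cidec (−1.32, adjusted p = 0.00397) and Fitm2 (−0.24, adjusted p = 0.0478) were called lower as well.

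Within corticosterone mice on control diet, 9 were labelled diabetic and 5 nondiabetic. No member and no other gene of 12003 passed edgeR's test between them (0%; 448 genes had an unadjusted p under 0.05, and DESeq2 and limma voom also called 0). Plin2 was the only member at an unadjusted p under 0.05, with 244.7 ± 41.5 CPM (SD, n = 9) in diabetic and 192.7 ± 39.4 CPM (SD, n = 5) in nondiabetic mice (log2 fold change 0.34, edgeR adjusted p = 0.992). Plin5 was 204.8 ± 39 (SD, n = 9) and 166.9 ± 36.5 CPM (SD, n = 5). The label did not wholly follow the labelled glucose. Control-diet replicate 36 was labelled nondiabetic at a glucose of 242, and atglistatin replicate 26 was labelled diabetic at 212. Under corticosterone the label went with the diet, since only 1 mouse on atglistatin was labelled diabetic, so label and diet cannot be fully told apart. Without the labelled mice, which leaves 5 against 13 libraries, the change with atglistatin under corticosterone was −0.36 for Plin5 (adjusted p = 0.291), −0.73 for Plin4 (adjusted p = 0.145) and −0.58 for Plin3 (adjusted p = 0.016).

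Insulin spanned 2.19 to 38.0 (labelled value, no unit given) among the 14 corticosterone mice on atglistatin. Per doubling of insulin, Cidec changed by −1.33 (SE 0.224, adjusted p = 0.0028) and Hsd17b13 by −0.21 (SE 0.0556, adjusted p = 0.038), where 5.92% of 12502 genes were called. Both calls rest on replicate 41, which had the lowest insulin. Without it the slopes were 0.54 (adjusted p = 0.164) and −0.06 (adjusted p = 0.641), and limma voom called 0 members with all 14. Plin5 had a slope of 0.04 (SE 0.0608).

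**Figure D5:**
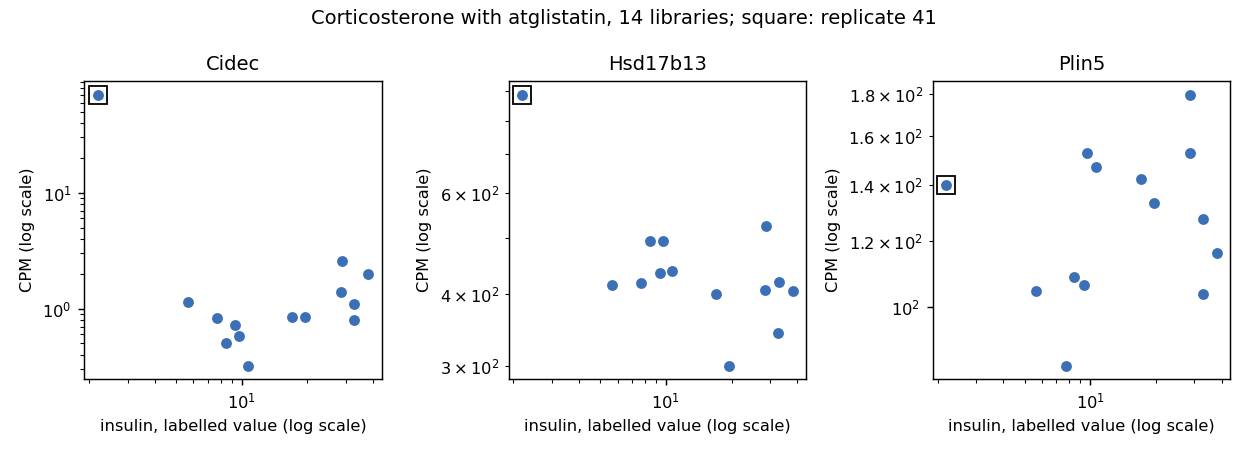
CPM of Cidec, Hsd17b13 and Plin5 against labelled insulin (log axes) in the 14 libraries of corticosterone with atglistatin. The square is replicate 41, at insulin 2.19, with Cidec at 70.4 CPM and Hsd17b13 at 889 CPM; the other points show Cidec at 2.57 CPM or less.

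Once group means were removed, few members varied together across the 48 libraries. Plin4 and Cidea (r = 0.66), Fitm2 and Hsd17b11 (r = 0.66), Plin4 and Cidec (r = 0.57), Plin3 and Cidec (r = 0.52, 0.36 without replicate 41), Plin3 and Plin5 (r = 0.47) and Cidea and Cidec (r = 0.47) had the highest values. Without replicate 41, Cidea and Cidec stood at 0.61, Plin4 and Cidec at 0.60, and Hsd17b13 and Hsd17b11, at 0.42 with it, at 0.51. Plin2 and Cidec stood at 0.44, and at 0.09 without replicate 41. These are descriptions of libraries that share depth and dissection, and Cidea and Cidec are sparse.

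Among 8251 genes with a mean of at least 5 CPM, the pattern over 48 libraries most like that of Plin5 was that of Alpl, Slc37a4, the glucose-6-phosphate transporter, and Aifm2 (Pearson r = 0.95 for each). For Plin3 they were Lsr (0.86), Rab7 (0.81) and Sec14l4 (0.80), and for Plin4 Zfp276 (0.84), Insig2 (0.79) and Snhg3 (0.79). Plin2 had no gene above 0.70 (Lipa, lysosomal acid lipase) with all libraries, and without replicate 41 the genes most like it were Abcd3 (0.76), Nfe2l1 (0.74) and Pgrmc2 (0.73). For Cideb they were Cpne3 (0.79), Ppp3ca (0.77) and Acaa2 (0.77), for Hsd17b13 Ctsz (0.78), Tpp1 (0.77) and Tm9sf4 (0.76), and for Hsd17b11 Plbd2 (0.76), Aqp9 (0.73) and Pigr (0.73). Without replicate 41, those most like Hsd17b11 were Cyp2e1 (0.84), Pigr (0.81) and Plbd2 (0.77), and Scamp1 (0.77) came first for Hsd17b13 and Acaa2 (0.81) for Cideb. For Fitm2 they were Hsd17b11 (0.70), Aars (0.70) and Vcp (0.69). Those most like Cidec (Tpm1, 0.69; Anxa5, 0.67; 2010003K11Rik, 0.66) fell to 0.47, 0.44 and 0.53 without replicate 41, where Rarres1 (0.68) came first. These values include the differences between groups and carry no test.

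The 3 genes of the ATGL step, on which PLIN5 acts, rose with corticosterone on control diet. Pnpla2, encoding ATGL, rose by 0.37 (SE 0.146, adjusted p = 0.0338), its activator Abhd5 by 0.42 (SE 0.0996, adjusted p = 0.000514) and its inhibitor G0s2 by 0.90 (SE 0.314, adjusted p = 0.0167). Mgll, which hydrolyses monoglyceride, rose by 1.01 (adjusted p = 5.09e-10) and the carboxylesterase Ces1f fell by 1.08 on the log2 scale (adjusted p = 1.14e-05). Of the 17 listed genes of lipolysis and lipophagy as a whole, 8 were higher and 6 lower, where 22.5% of all genes tested were higher and 21.7% lower, so calls went both ways. Their median log2 fold change was 0.21 against 0.01 over all genes. Atglistatin under corticosterone left these 3 genes of the ATGL step uncalled (Pnpla2 −0.01, Abhd5 0.10, G0s2 −0.51 with an adjusted p of 0.263), with 1 of 17 higher (Ces1g) and 1 lower (Mgll), where 11.7% of all genes were called. These values include replicate 41, which held the group's highest Pnpla2, and are not given without it.

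Of 12 genes of droplet formation at the endoplasmic reticulum, 5 rose and 1 fell with corticosterone on control diet (median 0.09), and 44.2% of all genes changed, so the share called was near that of all genes. Lpin1, the phosphatidate phosphatase that makes diglyceride, rose by 2.78 (SE 0.403, adjusted p = 1.33e-07), and Bscl2, encoding seipin, by 0.36 (adjusted p = 1.63e-05). Of 9 genes of triglyceride synthesis, 7 rose and 1 fell (median 0.39 over the 9), against 22.5% and 21.7% of all genes. Agpat3, an acyltransferase, rose by 0.93 (adjusted p = 3.03e-14), Dgat2, of the last step, by 0.61 (adjusted p = 1.61e-08) and Dgat1 by 0.38 (adjusted p = 1.85e-05), and Gpam, the first acyltransferase, fell by 0.99 on the log2 scale (adjusted p = 1.1e-07). Under corticosterone, atglistatin lowered 3 of these 9, Dgat2 (−0.42), Mogat1 (−1.42) and Agpat2 (−0.35), with adjusted p of 3.39e-05, 0.00123 and 0.00393, where 6.47% of all genes were lower, and changed 0 of the 12 formation genes by edgeR. Agpat2 was also lower with atglistatin under vehicle (−0.52, edgeR adjusted p = 0.000993), where Dgat2 (−0.06) and Mogat1 (−0.40) were not called.

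Of 28 other droplet surface genes, 9 rose and 9 fell with corticosterone on control diet (median 0.01), against 22.5% and 21.7% of all genes. The sterol enzymes Lss and Nsdhl fell by 1.50 and 1.53 on the log2 scale, and the acyl-CoA synthetase Acsl3 by 1.51. Under corticosterone 6 of the 28 were higher and 1 lower with atglistatin, where 11.7% of all genes changed, led by Hsd17b7 (0.98), Lss (1.01), Nsdhl (1.20) and Sqle (1.50), with adjusted p of 5.63e-06 or smaller. Their direction was opposite to that of Plin3, Plin4 and Plin5 in the same comparison.

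Of the nuclear factors, Ppara, which drives Plin2 and Plin5 in fasting liver, fell by 0.82 on the log2 scale with corticosterone on control diet (SE 0.132, adjusted p = 1.36e-06) and was higher with atglistatin under corticosterone (0.58, SE 0.122, adjusted p = 0.000794). Nr3c1, the glucocorticoid receptor gene, fell by 0.42 on the log2 scale (adjusted p = 1.42e-06), Creb3l3 rose by 0.29 (adjusted p = 0.00146), and Pparg changed by −0.40 without passing the test (adjusted p = 0.0886). Of 18 PPARα targets, 10 rose and 4 fell on control diet (median 0.44), against 22.5% and 21.7% of all genes, among them Acot1 (1.67) and Acadm (0.68) upward and Acaa1b (−1.14) downward. Of 7 measured PPARγ targets of steatosis, Fabp4, Cd36 and Mogat1 rose and Lpl fell on control diet, beside those same shares of all genes, and the first 3 were lower with atglistatin under corticosterone (−0.65, −0.63 and −1.42, adjusted p up to 0.0325). With atglistatin under vehicle, 2 PPARα targets of 18 rose where 3.13% of all genes changed, Cyp4a14 (1.89, adjusted p = 0.00194) and Cyp4a10 (1.29, adjusted p = 0.0105), whose close copies may share reads.

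Plin4, Cidea and Cidec are also genes of fat cells, so adipocyte markers are given beside them. Of 9 listed markers, 7 had values and 6 were tested. With corticosterone on control diet 4 fell (among them Car3, Adrb3 and Lpl, which liver also expresses) and Fabp4 rose, against 21.7% of all genes lower and 22.5% higher, and their summed level was 4760 to 10600 CPM under vehicle and 399 to 1720 CPM under corticosterone, mostly Car3. Adipoq, the defining one, had a mean of 0.6316 ± 0.587 (SD, n = 10) and 1.053 ± 1.02 CPM (SD, n = 14) and was not called (0.74, adjusted p = 0.294). Under corticosterone it was lower with atglistatin, at 0.3533 ± 0.403 CPM (SD, n = 14; log2 fold change −1.60, adjusted p = 0.0386). The other markers went both ways in that comparison. Fabp4 was also lower (−0.65, adjusted p = 0.00103) and Adrb3 was higher (0.75, adjusted p = 0.0253), while Cfd (−1.30), Car3 (0.16) and Lpl (0.15) were not called. The summed level of the markers was 172 to 2120 CPM with corticosterone and atglistatin, overlapping that on control diet, and their part in the Plin4, Cidea and Cidec results was not tested.

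Without the 11 libraries with Adipoq above 1 CPM, Plin4 rose with corticosterone on control diet by 1.48 (adjusted p = 0.000194) and was lower with atglistatin under corticosterone by −0.71 (adjusted p = 0.0656). Without these and replicate 41, the latter was −0.80 (adjusted p = 0.0299) and that of Cidec −1.49 (SE 0.392, adjusted p = 0.0107). Plin5 in the same fit was 1.91 (adjusted p = 5.27e-11) and −0.61 (adjusted p = 0.00428).

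Macrophage markers fell with corticosterone on control diet in 7 of 8 tested (Clec4f −1.19, Timd4 −1.92), where 21.7% of all genes fell, with summed levels of 162 to 293 CPM under vehicle and 58.4 to 134 CPM under corticosterone. Stellate cell markers fell in 5 of 8 and rose in 1 (44.2% of all genes changed), with sums of 300 to 359 and 277 to 346 CPM. With atglistatin under corticosterone, edgeR called 0 of 8 macrophage markers, and 1 stellate marker higher and 1 lower of 8. That fit includes replicate 41, whose sums were 311 CPM for macrophage markers (group median 68.8) and 442 CPM for stellate markers (group median 311). Calls without it are not given here, so equal levels on the 2 diets are not shown. The part of these cells in the perilipin results was not tested.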

How the data were processed

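Per the labels' protocols, liver RNA was made into QuantSeq libraries. The authors deposited 1 table of raw counts per gene and 1 table of normalized signal values. Per the submitters' processing notes, the build was GRCm38 and the tools R 3.6 and DESeq2 1.24.0, while aligner, counter and strand handling were not given in the sources used here. Dividing each library's counts by a single factor returned its deposited signal values (to 5.3e-15, relative), so they were used only for that check and for symbols. No gene had a total under 144 counts.

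Counts were tested in edgeR 4.0.16 (R 4.3.3). filterByExpr (minimum count 10, minimum total count 15) kept 12688 genes, TMM factors scaled the libraries, and 1 fit with a mean per group over all 48 libraries gave quasi-likelihood tests, adjusted over all genes tested by the Benjamini-Hochberg method and called at an adjusted p of at most 0.05. The diabetic label and insulin were fitted within their group of 14. CPM are counts scaled to a common TMM-adjusted library size, and libraries on one side of a group mean were counted from CPM. The test was checked on simulated counts first. Groups come from the sample titles.

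The members and lists were chosen with earlier results of these data known. Named were all 10 members, up to 4 called genes of each list per comparison with the smallest p, Ppara, Pparg, Nr3c1, Creb3l3, Pnpla2, Abhd5 and G0s2, and the 3 genes most like each member. One gene that the rule names is not reported here. Hilpda, Lpl, Fabp4, Pnpla2, Gpnmb and Trem2 in replicate 41 and the shorter promoter motifs were chosen after values or sequences were seen. Other settings were RLE size factors, no filter, DESeq2 1.42.0, limma 3.58.1 voom, the compared groups alone, no diabetic-labelled mice, and each library left out. Fits by Adipoq, by Cpa1 (a pancreatic gene, above 20 CPM in 6 libraries) and without replicate 41 plus other libraries were added after seeing the data. Coordinates are from GENCODE M21, and promoters, found for 9 members, from RefSeq. Protein sequences were not used here. No 2 libraries of a group agreed within sampling noise (smallest chi-square per degree of freedom 6.21).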

Additional observations from a re-analysis of the deposited data

Results flagged for a closer look

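In 20 tests of a member's highest and lowest library within groups of 10, 2 stood out, both in the same library. The limit used gives about 1 flag in 20 for normally distributed values. Cidea and Cidec are sparse and skewed, so that rate does not hold for them. Vehicle control-diet replicate 2 held Cidea at 3.68 CPM, with the next library of its group at 1.52 CPM. The same library held Cidec at 7.51 CPM, the next being 3.86 CPM. It also held the highest Cfd, an adipocyte gene, of its group (17.8 CPM, group median 5.08), and Adipoq at 1.41 CPM (group median 0.342). Replicate 4 held more Adipoq (1.68 CPM), with Cidea at 0.583 CPM (group median 0.218) and Cidec at 2.55 CPM (group median 2.38). Replicate 1 had the highest sum of adipocyte markers (10600 CPM), a sum that is mostly Car3, which liver also expresses. The part of fat cells in these values was not tested.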

How the results depend on the processing

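Cidec reversed wherever replicate 41 was left out or down-weighted. With DESeq2 its changes were −0.65 (corticosterone on atglistatin), −1.56 (atglistatin under corticosterone), −0.91 (difference between responses) and −1.30 (both agents against neither), with limma voom −0.55, −1.38, −1.12 and −0.81 (insulin slope 0.21), without replicate 41 and diabetic-labelled mice −0.80, −1.80, −1.13 and −1.47, and without it and the libraries with Adipoq above 1 CPM −0.49, −1.49, −1.29 and −0.69. Leaving out 1 library gave −0.66 to 2.14, −1.59 to 1.05, −0.92 to 1.88 and −1.32 to 1.48, and insulin slopes of −1.51 to 0.54 for Cidec and −0.21 to 0.019 for Plin2.

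The other reversals were of values that were not called. Hsd17b13 with atglistatin under corticosterone was −0.0035 with DESeq2, −0.00351 with RLE factors, −0.0778 with voom, −0.00839 with no filter, −0.0075 without diabetic-labelled mice, −0.14 without those and replicate 41, −0.0312 and −0.16 in the Adipoq fits (with and without replicate 41), and −0.11 to 0.0268 leaving out 1 library. Under vehicle it was −0.013 with voom, −0.0339 and −0.038 in the Adipoq fits and −0.0264 to 0.0765 leaving out 1 library, and its difference between responses was 0.00268 in the first Adipoq fit and −0.14 to 0.0283 leaving out 1. In the Adipoq fits Plin5 under vehicle was −0.16 in each (−0.14 in the Cpa1 fit, −0.0628 to 0.18 leaving out 1), Cideb with corticosterone on control diet −0.0599 and −0.0404, and Plin2 with corticosterone on atglistatin 0.008 in the first. Hsd17b11 with corticosterone on control diet was 0.0864 without diabetic-labelled mice and 0.0982 without replicate 41 too. In the Cpa1 fit, Fitm2 under vehicle was −0.00833 (−0.0165 to 0.0764 leaving out 1) and the Plin4 difference between responses, −0.46 (SE 0.337) with all libraries, was 0.17.

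Members called ran from 4 to 5 (corticosterone, control diet), 5 to 7 (corticosterone, atglistatin), 0 to 0 (atglistatin, vehicle), 3 to 4 (atglistatin, corticosterone), 0 to 1 (difference between responses), 1 to 4 (both against neither), 0 to 0 (diabetic label) and 0 to 2 (insulin) leaving out 1 library. Corticosterone on atglistatin called 4 in the Cpa1 fit and 4 in the Adipoq fit without replicate 41. Atglistatin under vehicle called 1 in the compared groups alone, atglistatin under corticosterone 1 without diabetic-labelled mice, the difference between responses 1 with voom, and insulin 0 with voom. Both agents against neither called 2 with RLE factors, no filter, no diabetic-labelled mice, the compared groups alone and the first Adipoq fit, 3 with DESeq2 or voom, and 4 without replicate 41 and diabetic-labelled mice. Unless stated, the cause was not tested.

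Titles share replicate numbers 9 to 12 between the vehicle groups and 13 and 14 between the atglistatin groups. Same-numbered libraries did not deviate together (r −0.12 to 0.04), so the numbers were not taken as pairs. With the replicate block, corticosterone on atglistatin called 0 members, against 1 in the same 4 libraries without the block, and atglistatin under vehicle called 0. With the block, Cidec and Hsd17b13 were −1.10 and −0.16 in the first, and Plin4, Cideb and Hsd17b13 were 0.0288, 0.00836 and −0.0743 in the second.

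Depth limits Cidea and, under about 1 CPM, Cidec. Genes with no called change are not shown to be unchanged.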
